A study of Mus musculus with 12 samples.

Results

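The genes described here are 8 receptors of the TNF receptor superfamily that T cells use for costimulation, survival and death signals: Tnfrsf1a, Tnfrsf1b, Tnfrsf4, Tnfrsf9, Tnfrsf14, Tnfrsf18, Tnfrsf25 and Cd27. They were taken by symbol from a table of read counts, and all 8 were found among its 45706 genes and all 8 were among the 15922 genes with enough reads to be tested. Polyadenylated RNA was sequenced from mouse conventional T cells (con) and regulatory T cells (Trg). Each cell type came from wild-type mice (WT) and from mice lacking Coro1a (KO), the gene of the actin-binding protein coronin 1, so that there were 4 groups of 3 libraries. No treatment, age, strain, organ or sorting gate is given in the labels. They also leave unsaid whether replicates are different animals. In each conventional group 2 libraries had high Xist with almost no Y-linked reads and 1 had the reverse, so those 3 did not all come from 1 animal. For libraries that are alike in these reads, p-values describe only how the libraries vary, and that part of the variation may be technical.

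Receptors of this family are surface proteins that are engaged mainly by ligands of the TNF family. These ligands are mostly trimeric, and most are displayed on antigen-presenting cells or on other lymphocytes. The receptors without a death domain (TNFR2, OX40, 4-1BB, HVEM, GITR and CD27) recruit TRAF adaptors, which switch on the canonical and the alternative NF-kB pathway and favour survival and division. TNFR1 and DR3 carry a death domain and recruit TRADD, from which either NF-kB signalling or cell death can follow. Regulatory T cells are known for high constitutive OX40, GITR, 4-1BB and TNFR2, which conventional T cells gain on activation, whereas CD27 and HVEM are well expressed by resting T cells.

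In GRCm38 coordinates 6 of the 8 genes lie on chromosome 4 and the other 2, Cd27 and Tnfrsf1a, on chromosome 6. Tnfrsf4 (chr4:156013843-156016612, plus strand) and Tnfrsf18 (chr4:156026164-156028895, plus strand) are separated by 9551 bases. Tnfrsf1b spans chr4:145213463-145246870 on the minus strand, Tnfrsf9 spans chr4:150914562-150946102 on the plus strand, and Cd27 spans chr6:125232622-125237010 on the minus strand. Stretches upstream of RefSeq transcription starts (build GRCm38.p6) are printed for the genes on which the results turn. Tnfrsf1b differed most between the genotypes in conventional cells, Tnfrsf4 and Tnfrsf9 each had the other as the nearest gene in pattern, and Cd27 had the steadiest level relative to T cell genes. Capitals mark matches to the motifs listed after them. The stretches of Tnfrsf9 and Tnfrsf18 lie upstream of these RefSeq starts but within the gene spans just given, inside the annotated genes.
Tnfrsf1b, 250 bases before the start, chr4:145246871-145247120, minus strand: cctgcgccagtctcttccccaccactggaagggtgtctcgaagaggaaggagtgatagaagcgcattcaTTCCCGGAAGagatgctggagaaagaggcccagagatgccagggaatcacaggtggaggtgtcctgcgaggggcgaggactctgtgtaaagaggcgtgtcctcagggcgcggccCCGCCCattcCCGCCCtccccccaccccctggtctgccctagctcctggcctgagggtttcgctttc
Tnfrsf9, 30 bases around the match before its second start, chr4:150927946-150927975, plus strand: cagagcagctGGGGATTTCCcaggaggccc
Tnfrsf18, 30 bases around the match, chr4:156026213-156026242, plus strand: tgctctacacTTCACAGAAggcctttacaa
Tnfrsf4, 84 bases, chr4:156013611-156013694, plus strand: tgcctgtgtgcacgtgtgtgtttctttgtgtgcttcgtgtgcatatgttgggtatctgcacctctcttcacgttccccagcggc
Cd27, 250 bases before the start, chr6:125237028-125237277, minus strand: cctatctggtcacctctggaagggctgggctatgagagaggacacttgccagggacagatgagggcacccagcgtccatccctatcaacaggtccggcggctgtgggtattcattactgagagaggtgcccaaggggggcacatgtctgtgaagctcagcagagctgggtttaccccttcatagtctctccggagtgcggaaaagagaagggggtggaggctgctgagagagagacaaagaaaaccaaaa

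All 8 genes matched RefSeq starts, with 10 starts in all because Tnfrsf9 and Tnfrsf25 have more than 1. The 250 bases before each start were searched on both strands for 8 motifs, and the same was done for 32851 promoters. The STAT motif TTCNNNGAA was found before 5 of the 10 starts, those of Tnfrsf1b, Tnfrsf9, Tnfrsf18, Tnfrsf25 and Tnfrsf1a, and before 7.02% of all promoters. The NF-kB motif (GGG, any 2 bases, TTTCC) was found before 2 of the 10 starts, in Tnfrsf9 and Tnfrsf25, and before 1.41% of all promoters. Fewer starts held the AP-1 motif TGANTCA (1 start, 6.75% of promoters) and the RUNX motif TGTGGT (1 start, 14% of promoters). The ETS motif CCGGAAG (6.91% of promoters) and the Sp1 motif GGGCGG (32.7%) were each before 2 starts. The forkhead motif TGTTTAC (3.17%) and the cAMP response element TGACGTCA (1.55%) were before none. In Tnfrsf1b the STAT match overlapped the ETS match, and no match lay before Tnfrsf4, Tnfrsf14 or Cd27. A match of letters is a description of the sequence and not evidence of binding.

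The libraries held 19686870 to 33404302 gene counts, and every member had at least 322 counts in every library. Coro1a was at 2295 ± 149 CPM (counts scaled to the library's size) in WT con, 45.2 ± 1.82 in KO con, 2509 ± 200.2 in WT Trg and 26.7 ± 5.07 in KO Trg libraries (SD, n = 3). Marker genes of 6 T cell surface and signalling molecules (Cd3d, Cd3e, Cd3g, Cd5, Cd6 and Lat) summed to 3063 to 3352 CPM in WT con, 1949 to 2316 in KO con, 1683 to 2323 in WT Trg and 1083 to 1663 in KO Trg libraries. All 10 B cell markers were present in every regulatory library and summed to 3928 to 5459 CPM in WT Trg and 4375 to 5341 in KO Trg, against 5.19 to 7.17 in WT con and 36.4 to 61.1 in KO con. Macrophage and monocyte markers (11 genes) summed to 292 to 486 CPM in WT con, 1684 to 3649 in KO con, 1027 to 1366 in WT Trg and 1091 to 2467 in KO Trg. Neutrophil markers (10 genes) summed to 5.09 to 12.5 in WT con and 353 to 701 in KO con. NK cell markers (10 genes) summed to 85.9 to 120.3 in WT con and 439.8 to 783 in KO con. Gamma delta T cell markers (5 genes) went from 25.8 to 42.6 in WT con to 192 to 214 in KO con, and dendritic cell markers (9 genes) from 19 to 25.8 to 129 to 189. In regulatory cells, neutrophil markers were at 62.7 to 119 in WT and 124 to 298 in KO, and dendritic cell markers at 81 to 102 and 127 to 172, both without overlap. NK cell markers, at 76.6 to 129.6 in WT Trg and 129.8 to 141 in KO Trg, narrowly missed overlap. Gamma delta T cell markers, at 38.2 to 79.7 and 76 to 157, overlapped. The regulatory T cell markers Foxp3, Il2ra, Ikzf2 and Ctla4 summed to 82.4 to 133 CPM in WT con, 202 to 356 in KO con, 1501 to 1734 in WT Trg and 1289.8 to 1744 in KO Trg, highest in the libraries labelled regulatory. The part of any of these other cell types in the members' values was not tested, and in bulk RNA fewer cells of a type and less RNA per cell cannot be told apart. The libraries differed in the transcripts that mark sex, and unequally between the cell types. Xist exceeded 100 CPM in 4 of 6 conventional libraries (1211 to 1746, with Y-linked genes at most 0.0326) and 2 of 6 regulatory ones, the others having 287 to 541 CPM from Y-linked genes. The genotypes of a cell type were alike in this, and a sex term in the fit called 7 members in KO con and 0 in KO Trg, 8 in the WT and 7 in the KO cell type contrast, and 3 where the KO effects were compared. In 4 regulatory libraries (WT Trg replicates 1 and 3, KO Trg replicates 1 and 2) reads from both Xist and Y-linked genes exceeded 1 CPM, and in WT Trg replicate 3 and KO Trg replicate 1 they exceeded 100 and 10 CPM.

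**Figure D1:**
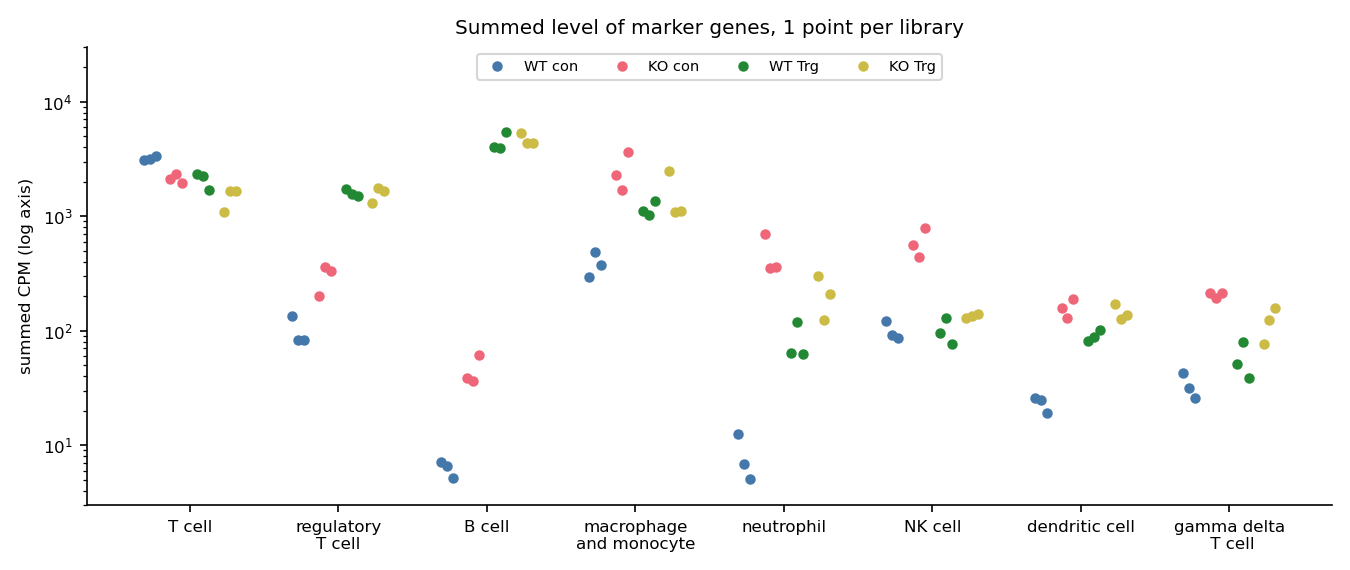
Summed CPM (log axis) of marker genes for 8 cell types in each of the 12 libraries, 1 point per library, coloured by group. B cell markers lie between 3928 and 5459 in the regulatory libraries and below 100 in the conventional ones, and macrophage, neutrophil, NK, dendritic and gamma delta T cell markers lie higher in KO con than in WT con libraries.

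Levels were compared between genes as CPM per kilobase of exon. In WT con libraries Cd27, the costimulator of resting T cells, was highest at 127 ± 4.5, followed by Tnfrsf14 (46.9 ± 2.76), Tnfrsf25 (38 ± 1.26), Tnfrsf18 (30.8 ± 1.97), Tnfrsf1a (27.3 ± 0.316), Tnfrsf1b (18.7 ± 1.8), Tnfrsf4 (10.9 ± 1.74) and Tnfrsf9 (4 ± 0.295; SD, n = 3), and no neighbours in this order overlapped. In WT Trg libraries Tnfrsf4 was highest at 138 ± 9.63, ahead of Tnfrsf18 (118 ± 13.4) and Cd27 (93.9 ± 13.5), and the last pair overlapped. Tnfrsf1b (65.1 ± 5.44), Tnfrsf9 (43.9 ± 3.88), Tnfrsf25 (28.2 ± 3.74), Tnfrsf14 (20.6 ± 0.778) and Tnfrsf1a (16.9 ± 1.8; SD, n = 3) followed without overlap. The order was thus led by Cd27 in conventional and by Tnfrsf4 in regulatory cells. In KO con libraries Cd27 (94.9 ± 7.32) and Tnfrsf1b (62.8 ± 16.3; SD, n = 3) were highest, while Tnfrsf18, Tnfrsf14, Tnfrsf1a, Tnfrsf25 and Tnfrsf4 lay between 26 and 36.2 and each overlapped its neighbour in rank. In KO Trg libraries Tnfrsf4 (171 ± 34.3) overlapped Tnfrsf18 (122 ± 24.4), and Tnfrsf1b (82.5 ± 11.3) overlapped Cd27 (72.6 ± 13.3). Tnfrsf9 followed at 46.9 ± 9.11, and Tnfrsf25 (24.1 ± 4.24), Tnfrsf14 (18.4 ± 1.12) and Tnfrsf1a (18.1 ± 3.42; SD, n = 3) each overlapped the next.

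Libraries of regulatory and conventional T cells of WT mice differed in all 8 receptors, 4 higher and 4 lower in the regulatory ones, where 39.1% of all genes tested were higher and 33.3% lower. B cell marker sums were 3928 to 5459 CPM in WT Trg against 5.19 to 7.17 in WT con. Macrophage and monocyte sums were 1027 to 1366 against 292 to 486, and T cell sums 1683 to 2323 against 3063 to 3352. The part of other cells in the levels of any of the 8 receptors was not tested. The 4 that rose were the receptors known from regulatory T cells. Tnfrsf4, which encodes OX40, read 17.5, 12.8 and 14.5 CPM in the WT con libraries and 193, 199 and 174 CPM in the WT Trg libraries. Every regulatory library was far above every conventional one, and the level was 12.6-fold higher in regulatory cells (log2 fold change 3.66 ± 0.25 SE, adjusted p = 1.91e-07, edgeR's quasi-likelihood F test with Benjamini-Hochberg adjustment). Tnfrsf9, which encodes 4-1BB, read 11.8, 10.5 and 10.3 CPM in WT con and 126, 125 and 107 CPM in WT Trg libraries. The groups again did not overlap, with an 11-fold higher level in regulatory cells (log2 fold change 3.46 ± 0.20 SE, adjusted p = 5.82e-08).

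Tnfrsf18, which encodes GITR, read 50.4, 44.8 and 45.6 CPM in WT con and 189, 194 and 156 CPM in WT Trg libraries. It was already well expressed in conventional cells, and it was 3.83-fold higher in regulatory cells (log2 fold change 1.94 ± 0.14 SE, adjusted p = 3.89e-07). Tnfrsf1b, which encodes TNFR2, read 79, 69 and 65.8 CPM in WT con and 263, 258 and 225 CPM in WT Trg libraries. Its groups did not overlap either, and it was 3.49-fold higher in regulatory cells (log2 fold change 1.80 ± 0.17 SE, adjusted p = 1.94e-06).

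The 4 receptors that were lower in regulatory cells differed by less, and with libraries scaled to T cell genes the changes of Tnfrsf25 and Cd27 turned positive (0.19 and 0.18, not called) and that of Tnfrsf1a lost its call (-0.06). Tnfrsf14, which encodes HVEM, the receptor of LIGHT and partner of BTLA, read 72.1, 65.4 and 65 CPM in WT con and 28.7, 30.8 and 29.2 CPM in WT Trg libraries. It was 2.28-fold lower in regulatory cells (log2 fold change -1.19 ± 0.08 SE, adjusted p = 1.5e-07), with no overlap. Tnfrsf1a, which encodes the TNF receptor TNFR1, read 70.8, 69.9 and 71.5 CPM in WT con and 49.3, 41.7 and 40.8 in WT Trg, 1.61-fold lower (log2 fold change -0.69 ± 0.12 SE, adjusted p = 0.000314). Tnfrsf25, which encodes DR3, the receptor of TL1A, was 1.35-fold lower (88.5, 87.8 and 83.2 CPM against 66.2, 71.7 and 55 CPM, adjusted p = 0.00913). Cd27, the receptor of CD70, was also 1.35-fold lower, at 307, 286 and 293 CPM in WT con and 241, 232 and 183 CPM in WT Trg libraries (adjusted p = 0.01).

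**Figure D2:**
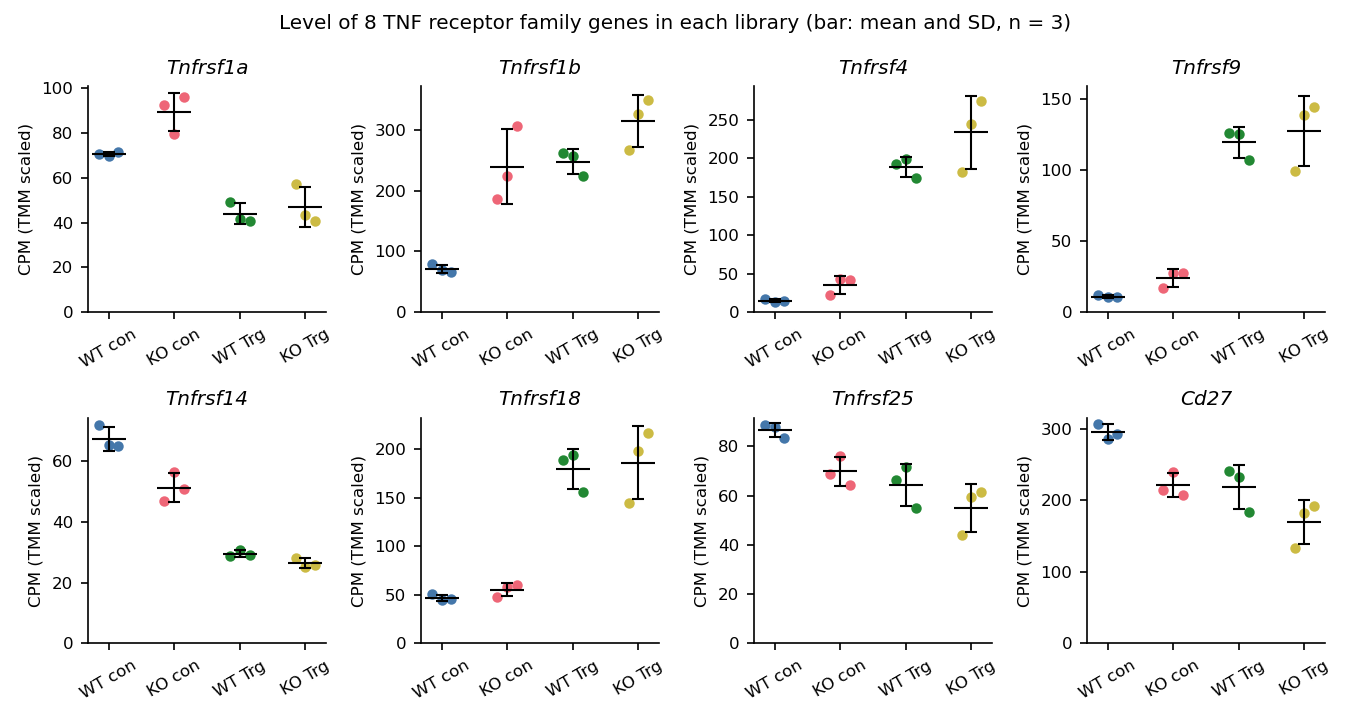
CPM of each of the 8 receptor genes in the 12 libraries, 1 point per library, with the mean and SD of each group of 3. Tnfrsf4 and Tnfrsf9 lie above 90 CPM in the regulatory libraries and below 50 in the conventional ones, and Tnfrsf1b in KO con libraries (187 to 308 CPM) spans the range of the WT Trg libraries (225 to 263 CPM).

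The same contrast in KO mice called all 8 genes, with 4 higher and 4 lower in regulatory cells, where 36.1% of all genes tested were higher and 31.7% lower. Here too B cell marker sums differed, at 4375 to 5341 CPM in KO Trg against 36.4 to 61.1 in KO con. The part of other cells in the receptor levels was not tested. Tnfrsf4 was 6.58-fold higher (log2 fold change 2.72 ± 0.23 SE, adjusted p = 1.69e-06), Tnfrsf9 5.35-fold (2.42 ± 0.19 SE, adjusted p = 7.94e-07) and Tnfrsf18 3.37-fold (1.75 ± 0.14 SE, adjusted p = 1.16e-06). Of the 4 higher genes Tnfrsf1b differed by the smallest step, 1.31-fold (0.39 ± 0.16 SE, adjusted p = 0.0455). That Tnfrsf1b call was made in 9 of the 24 alternative settings that kept the threshold of 0.05 and no fold minimum. It was lost with a sex term (0.32, adjusted p = 0.051), and also without each of WT con replicates 1 to 3, KO con replicates 1 and 2, WT Trg replicates 1 and 2 and KO Trg replicates 2 and 3, with adjusted p from 0.0513 to 0.195. Tnfrsf14 fell by 0.96, Tnfrsf1a by 0.93, Cd27 by 0.39 and Tnfrsf25 by 0.35 on the log2 scale (adjusted p = 1.14e-06, 3.71e-05, 0.0202 and 0.0289), but with scaling to T cell genes none of these 4 was called and the last pair turned positive (0.16 and 0.20). The Cd27 call was lost without KO con replicate 2 (adjusted p = 0.0734) or KO Trg replicate 1 (0.0648), and the Tnfrsf25 call without KO con replicate 1 (0.053), KO con replicate 2 (0.103) or KO Trg replicate 1 (0.102).

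Libraries of conventional T cells lacking Coro1a had higher levels of 4 of the 8 receptors and lower levels of 2, where 23.3% of all genes tested were higher and 25.4% lower. Markers of other cell types were also higher in these libraries, and their part in the receptor levels was not tested. The 4 that rose were Tnfrsf1b, Tnfrsf4, Tnfrsf9 and Tnfrsf1a, and the 2 that fell were Tnfrsf14 and Cd27, whose changes turned positive and were not called with T cell genes for scaling (0.19 and 0.17). Tnfrsf1b read 79, 69 and 65.8 CPM in WT con and 187, 224 and 308 CPM in KO con libraries. It was 3.36-fold higher in KO con (log2 fold change 1.75 ± 0.17 SE, adjusted p = 1.52e-05), and the lowest KO library was more than 100 CPM above the highest WT library. The KO con library with the highest Tnfrsf1b, replicate 3, also had the highest macrophage and monocyte sum, 3649 CPM, against 2303 and 1684 CPM in replicates 1 and 2. Between replicates 1 and 2 the order was reversed, with Tnfrsf1b at 187 and 224 CPM. In KO Trg the library with the highest such sum, replicate 1 with 2467 CPM, had the lowest Tnfrsf1b of its group, 267 CPM. The part of these cells in the Tnfrsf1b values was not tested.

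Tnfrsf4 read 17.5, 12.8 and 14.5 CPM in WT con and 21.9, 43.3 and 41.3 CPM in KO con libraries. KO con replicate 1 was close to the WT range and the other two were well above it, and the level was 2.38-fold higher in KO (log2 fold change 1.25 ± 0.24 SE, adjusted p = 0.00129). Tnfrsf9 read 11.8, 10.5 and 10.3 CPM in WT con and 16.8, 27.4 and 27.3 CPM in KO con libraries. It was 2.19-fold higher in KO (log2 fold change 1.13 ± 0.19 SE, adjusted p = 0.000648), and replicate 1 was again the lowest of the KO libraries. Foxp3, the defining transcription factor of regulatory T cells, moved the same way, from 23.7 ± 3.07 CPM in WT con to 50.1 ± 18.9 CPM in KO con libraries (SD, n = 3), with KO con values from 29.2 to 66.2.

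Set against Foxp3 counts in the same library, Tnfrsf4 had 0.61 to 0.647 counts per Foxp3 count in WT con and 0.624 to 0.79 in KO con libraries. Tnfrsf9 had 0.437 to 0.5 in WT con and 0.412 to 0.576 in KO con, so both ratios overlapped between the genotypes. Tnfrsf1b had 2.85 to 3.29 counts per Foxp3 count in WT con and 4.09 to 6.39 in KO con, with no overlap. Tnfrsf18 had 1.86 to 2.14 in WT con and 0.904 to 1.63 in KO con, also with no overlap but in the other direction. In regulatory libraries the ratios were lower, at 0.333 to 0.403 for Tnfrsf4 in WT Trg and 0.386 to 0.426 in KO Trg, and at 0.217 to 0.253 and 0.219 to 0.225 for Tnfrsf9. These ratios are a description of 3 libraries a group, and the part of Foxp3-expressing cells in the con values was not tested. They also depend on the marker, and Foxp3 was the only one used. From WT con to KO con Il2ra went from 21.1 ± 5.62 to 38.2 ± 4.27 CPM and Ctla4 from 19.5 ± 7.24 to 41 ± 12.4. Ikzf2 went from 35.3 ± 13.3 to 166 ± 51.2 CPM (SD, n = 3).

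The other members differed by less in KO conventional cells. Tnfrsf1a read 92.8, 79.8 and 96 CPM in KO con against 70.8, 69.9 and 71.5 in WT con, 1.27-fold higher (log2 fold change 0.34 ± 0.12 SE, adjusted p = 0.0347). This call was lost without any of WT con replicates 1, 2 or 3 (adjusted p = 0.0772, 0.0891 and 0.0754) or KO con replicates 1 or 3 (0.0914 and 0.115). Tnfrsf14 read 46.8, 56.5 and 50.8 CPM in KO con against 72.1, 65.4 and 65 in WT con, 1.31-fold lower (log2 fold change -0.39 ± 0.08 SE, adjusted p = 0.0015). Cd27 read 215, 240.2 and 208 CPM in KO con against 307, 286 and 293 in WT con, 1.34-fold lower (log2 fold change -0.42 ± 0.13 SE, adjusted p = 0.0197), and that call was lost without WT con replicate 1 (0.057), KO con replicate 1 (0.0577) or KO con replicate 3 (0.0716). Tnfrsf25 (68.9, 76.1 and 64.3 CPM in KO con) and Tnfrsf18 (47.7, 58.1 and 59.8 CPM) did not pass, with log2 fold changes of -0.31 ± 0.13 and 0.23 ± 0.14 SE (adjusted p = 0.0593 and 0.192), though Tnfrsf25 passed in 9 of 24 alternative settings, among them the sex term (adjusted p = 0.0482).

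Regulatory T cells lacking Coro1a showed no call among the 8 receptors by edgeR's quasi-likelihood F test, where 4.01% of all genes tested were higher and 3.82% lower. At an unadjusted p below 0.05 there was 1, Cd27, DESeq2 called 1, also Cd27, and limma-voom called 0. Cd27 read 134, 182 and 192 CPM in KO Trg against 241, 232 and 183 CPM in WT Trg libraries, and its log2 fold change was -0.37 ± 0.13 (SE, adjusted p = 0.105). KO Trg replicate 3 lay above WT Trg replicate 3, so the groups overlapped. Without WT Trg replicate 3 the Cd27 change was called (-0.48, adjusted p = 0.0326), and it was also called without the 2 libraries of mixed Xist and Y-linked reads (-0.34, adjusted p = 0.0225).

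Tnfrsf1b read 267, 328 and 351 CPM in KO Trg against 263, 258 and 225 in WT Trg libraries. All 3 KO libraries were above all 3 WT libraries, but the log2 fold change of 0.34 ± 0.16 SE did not pass (adjusted p = 0.204). Tnfrsf4 read 182, 245 and 274 CPM in KO Trg against 193, 199 and 174 CPM in WT Trg (0.31 ± 0.22 SE, adjusted p = 0.398), and Tnfrsf9 read 99.1, 139 and 144 CPM against 126, 125 and 107 CPM (0.10 ± 0.18 SE, adjusted p = 0.771). In both, KO Trg replicate 1 was the lowest KO library and fell within or below the WT range. That library also had the lowest T cell marker sum of the 12, 1083 CPM, and the second highest macrophage and monocyte sum, 2467 CPM.

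The remaining differences between the genotypes in regulatory cells were small. Tnfrsf18 read 144, 198 and 216 CPM in KO Trg against 189, 194 and 156 CPM (0.05 ± 0.14 SE, adjusted p = 0.844). Tnfrsf25 read 43.8, 59.5 and 61.4 CPM against 66.2, 71.7 and 55 CPM (-0.23 ± 0.13 SE, adjusted p = 0.283). Tnfrsf14 read 28.3, 25.2 and 26 CPM against 28.7, 30.8 and 29.2 CPM (-0.16 ± 0.08 SE, adjusted p = 0.224), with every KO library below every WT library. Tnfrsf1a read 57.1, 43.2 and 40.5 CPM against 49.3, 41.7 and 40.8 CPM (0.10 ± 0.12 SE, adjusted p = 0.645), and its change turned to -0.07 without KO Trg replicate 1 (adjusted p = 0.762).

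**Figure D3:**
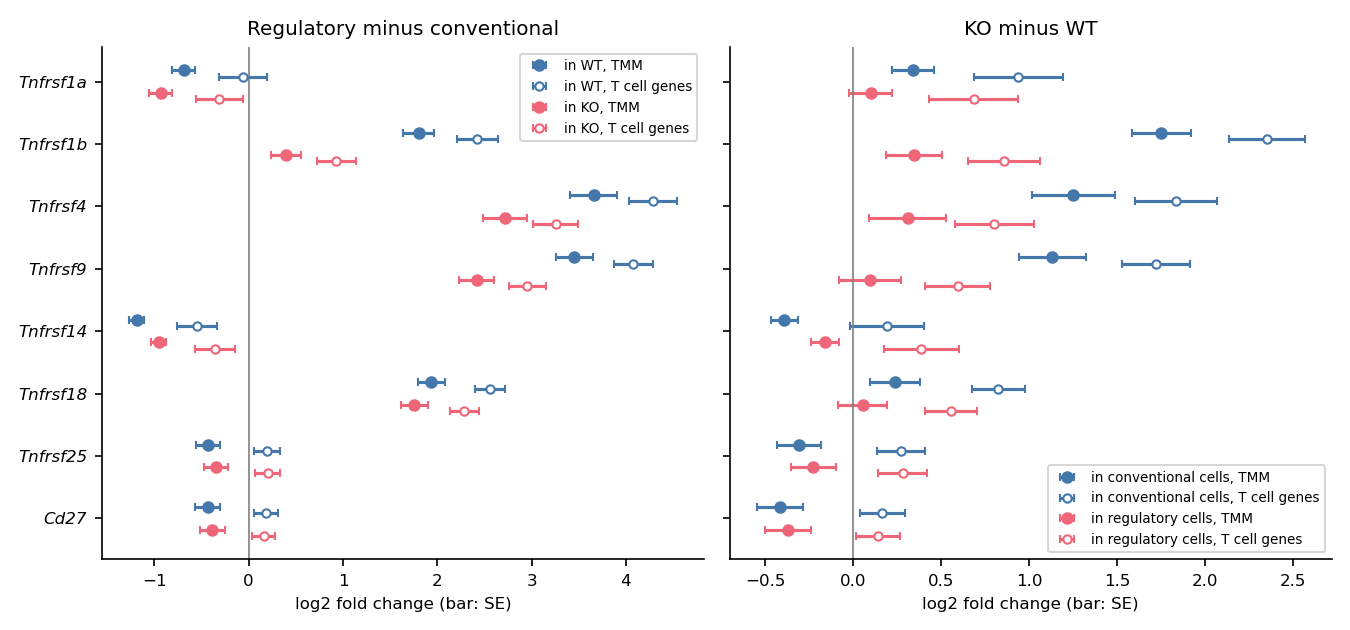
Log2 fold changes (with SE) of the 8 genes between cell types (left) and between genotypes (right), with TMM scaling (filled) and with libraries scaled to 6 T cell genes (open), in WT and KO or in conventional and regulatory cells. The KO change of Tnfrsf1b is 1.75 in conventional and 0.34 in regulatory cells with TMM scaling, and Cd27 lies below 0 with TMM scaling and above 0 with T cell genes in all 4 contrasts.

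The difference between the genotype effects in the 2 cell types was tested directly, as the KO effect in regulatory minus the KO effect in conventional cells. Of the 8 receptors 2 differed, both with the smaller KO effect in regulatory cells, where 12.4% of all genes tested had a negative and 8.86% a positive difference. Tnfrsf1b had a difference of -1.41 ± 0.23 SE on the log2 scale (adjusted p = 0.00199) and was called in 23 of 23 alternative settings at the threshold of 0.05. Tnfrsf9 had -1.03 ± 0.26 SE (adjusted p = 0.0162) and was called in 22 of these 23 but not at a threshold of 0.01. The setting of the 23 without a call was the fit without the 4 libraries of mixed Xist and Y-linked reads (-0.89, adjusted p = 0.122), which left 1 library in each regulatory group. Tnfrsf4 had -0.94 ± 0.32 SE and did not pass (adjusted p = 0.0567), but it passed in 6 of 23 settings, among them without KO con replicate 1 (-1.20, adjusted p = 0.00465) and with a sex term (-0.94, adjusted p = 0.0411). The other 5 receptors had differences between -0.24 and 0.23 (adjusted p from 0.151 to 0.882), of which Tnfrsf1a was called without KO Trg replicate 1 (-0.40, adjusted p = 0.0419) and without the 2 libraries with the most mixed Xist and Y-linked reads (-0.45, adjusted p = 0.0304).

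The T cell marker sum was lower in KO than in WT libraries of either cell type and lower in regulatory than in conventional libraries of either genotype, in each case without overlap. Levels were therefore also expressed per 1000 counts of the 6 T cell genes. On that scale Cd27 varied least of the 8, from 87.4 to 123 counts over the 12 libraries, a ratio of 1.41 between the highest and the lowest, against 2.29 in CPM. Tnfrsf25 varied from 24.8 to 40.4 (a ratio of 1.63, against 2.02 in CPM), while Tnfrsf4 varied from 4.08 to 168 and Tnfrsf9 from 3.09 to 91.4. In KO con libraries Tnfrsf25 read 32.8, 32.9 and 33 per 1000, and in WT con libraries 28.9, 28 and 24.8. KO Trg replicate 1, which had the lowest T cell marker sum, was the highest of the 12 libraries on this scale for all 8 genes, with 52.7 for Tnfrsf1a and 26.1 for Tnfrsf14.

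**Figure D4:**
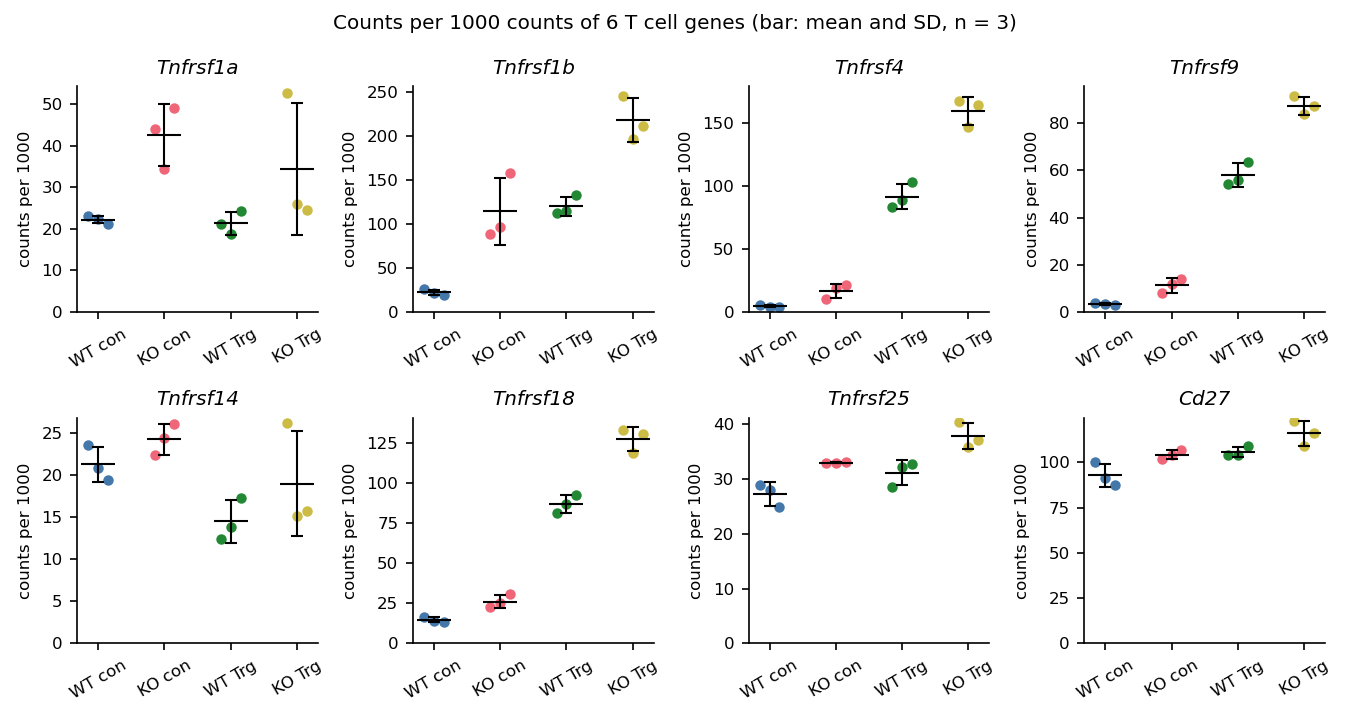
Counts of each of the 8 genes per 1000 counts of 6 T cell genes in the 12 libraries, 1 point per library, with the mean and SD of each group of 3. Cd27 stays between 87.4 and 123 in all libraries. Tnfrsf1b, Tnfrsf4, Tnfrsf9, Tnfrsf18 and Tnfrsf25 are highest in KO Trg libraries, where the T cell marker sum is lowest.

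With libraries scaled to the T cell genes in the edgeR test, the median log2 fold change of all genes moved to 0.53 in KO con, 0.53 in KO Trg, 0.71 for the WT and 0.62 for the KO cell type contrast, from -0.05, 0.00, 0.07 and 0.03. The share of all genes higher and lower in KO con moved from 23.3% and 25.4% to 44% and 0.377%, and in KO Trg from 4.01% and 3.82% to 32.1% and 0.258%. The cell type contrast moved from 39.1% and 33.3% to 57.3% and 6.07% in WT, from 36.1% and 31.7% to 52.1% and 6.75% in KO, and the difference of effects from 8.86% and 12.4% to 0.188% and 5.78%. In KO con, Tnfrsf1b (2.35), Tnfrsf4 (1.83), Tnfrsf9 (1.72), Tnfrsf1a (0.94) and Tnfrsf18 (0.82) were called higher and lay above the median of all genes, while Tnfrsf14 (0.19), Tnfrsf25 (0.27) and Cd27 (0.17) turned positive, were not called and lay below it. In KO Trg the same scaling called 4 receptors, Tnfrsf1b (0.86, adjusted p = 0.023), Tnfrsf4 (0.80, 0.0311), Tnfrsf9 (0.59, 0.0373) and Tnfrsf18 (0.55, 0.0299), beside that median of 0.53. Between cell types Tnfrsf4, Tnfrsf9, Tnfrsf18 and Tnfrsf1b kept their calls as higher in regulatory cells in both genotypes, and of the 4 lower receptors Tnfrsf14 in WT kept its call (-0.55, adjusted p = 0.0345). The difference of effects kept its calls for Tnfrsf1b (-1.5, adjusted p = 0.00741) and Tnfrsf9 (-1.12, adjusted p = 0.0202).

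The gene whose pattern over the 12 libraries was most like Tnfrsf4, among 10490 genes at 5 CPM or more, was Tnfrsf9, and the reverse held too. Likeness was measured as the root mean square difference of centred log2 CPM, which was 0.182 for this pair, against an SD of 1.69 for Tnfrsf4 itself. After Tnfrsf9, Tnfrsf4 was closest to Dusp4 (0.187), a phosphatase of MAP kinases, and Ccr8 (0.222), a chemokine receptor. Ccr8 read 1.24 ± 0.27, 4.31 ± 1.81, 16 ± 1.8 and 21.7 ± 4.52 CPM in WT con, KO con, WT Trg and KO Trg (SD, n = 3). Tnfrsf9 was next closest to Rgs1 (0.185), a regulator of G protein signalling, and Gm4956 (0.199).

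Cd27 and Tnfrsf25 were close to each other as well (0.0786), with Cd27 the nearest gene to Tnfrsf25, and Ephb6 (0.0748) the nearest to Cd27. Tnfrsf1b was closest to Pglyrp1 (0.146), Stx11 (0.168) and Vill (0.197), and its nearest fellow member, Tnfrsf18, ranked 1157. Pglyrp1, a peptidoglycan recognition protein, read 10.1 ± 0.556, 30.2 ± 2.39, 34.1 ± 3.64 and 39 ± 2.64 CPM in the same order of groups (SD, n = 3). Tnfrsf18 was closest to Cish (0.182), a feedback inhibitor of cytokine signalling, then Isg20 (0.209) and Gata1 (0.213). Tnfrsf14 was closest to Spata1 (0.0763), Zscan26 (0.0773) and Fam208a (0.0788), and Tnfrsf1a to Tbc1d2b (0.107), Ptpn12 (0.11) and Trip6 (0.118). Libraries share their group, so these likenesses describe 12 libraries in 4 groups.

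Tnfrsf4 and Tnfrsf18 are neighbours on chromosome 4. In KO con cells Tnfrsf4 rose by 1.25 and Tnfrsf18 had 0.23 and did not pass. The difference between them was not tested. The gene on the other side of Tnfrsf4, Sdf4, read 292 ± 8.03 CPM in WT con and 378 ± 32.9 CPM in WT Trg (SD, n = 3), with log2 fold changes of 0.37 between cell types in WT (adjusted p = 0.00203) and -0.17 in KO con (adjusted p = 0.121). The next tested gene beyond Tnfrsf18, 9430015G10Rik, was lower in regulatory cells (-0.92, adjusted p = 6.2e-06). Gm37090 and Gm16008, between or across the pair, stayed below 2 CPM in every group mean. Gm16008 overlaps Tnfrsf18 on the other strand, as Camta1 does Tnfrsf9 and Vamp1 does Cd27.

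The list of ligands of the 8 receptors had the highest median of the lists in KO conventional cells. It also held BTLA and CD160 as further binding partners of HVEM, and lymphotoxin beta, whose receptor Ltbr is not a member. Of 10 tested, 5 rose and 2 fell, with a median of 1.20 against -0.05 for all genes. That median includes genes with few reads. Tnfsf4 was at 0.261 and 1.42 CPM in WT and KO con, Tnfsf18 at 0.261 and 0.939, and Cd70 at 0 and 0.0298. Their log2 fold changes were 2.42, 1.83 and 3.04. Tnfsf4 and Tnfsf18 are among the 5 that rose, and Cd70 was not called. Tnfsf14, which encodes the HVEM ligand LIGHT, rose from 10.1 ± 3.99 to 38.6 ± 1.54 CPM (log2 fold change 1.93 ± 0.34 SE, adjusted p = 0.000746), while Tnfrsf14 itself fell. Cd160, another HVEM partner, rose from 9.64 ± 3.47 to 29.9 ± 1.05 CPM (1.64 ± 0.28 SE, adjusted p = 0.000738). Btla, the inhibitory HVEM partner, fell from 228 ± 21.6 to 151 ± 12.9 CPM (-0.60 ± 0.09 SE, adjusted p = 0.000348), and Ltb, which encodes lymphotoxin beta, fell from 493 ± 33.9 to 356 ± 16.3 CPM (adjusted p = 0.00251; SD, n = 3), and with scaling to T cell genes neither fall was called (-0.0084 for Btla and 0.12 for Ltb) and 7 ligands rose. In KO Trg edgeR called 0 ligands (2 at an unadjusted p below 0.05, 0 by DESeq2 and 1 by limma-voom), with a median of 0.33 and 0.00 over all genes, and with libraries scaled to T cell genes it called 6. In regulatory against conventional cells 7 were higher in WT and the other 3 did not pass (median 0.74), and 4 were higher and 2 lower in KO (median 0.53). With scaling to T cell genes 9 were higher and 0 lower in WT, and 5 higher and 0 lower in KO. Of all genes tested, TMM scaling called 23.3% higher and 25.4% lower in KO con, and T cell genes 44% and 0.377%. In KO Trg these shares were 4.01% and 3.82%, and 32.1% and 0.258%. Between cell types they were 39.1% and 33.3%, and 57.3% and 6.07%, in WT, and 36.1% and 31.7%, and 52.1% and 6.75%, in KO. NK cell, macrophage, neutrophil, dendritic and gamma delta T cell marker sums were also higher in KO con than in WT con libraries, as given above. Their part in the ligand values was not tested.

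Of 17 other receptors of the family tested, 9 rose and 2 fell in KO con (median 0.19), 1 rose and 2 fell in KO Trg (median -0.05), 10 rose and 6 fell between cell types in WT (median 1.30) and 8 rose and 5 fell in KO (median 0.33). With libraries scaled to T cell genes the counts higher and lower became 12 and 0 in KO con, 4 and 0 in KO Trg, 11 and 1 between cell types in WT and 9 and 1 in KO, and the median in KO Trg turned to 0.50. Over all genes tested, the shares higher and lower in KO con were 23.3% and 25.4%, and 44% and 0.377% with T cell genes. In KO Trg they were 4.01% and 3.82%, and 32.1% and 0.258%. The cell type contrast had 39.1% and 33.3%, and 57.3% and 6.07%, in WT, and 36.1% and 31.7%, and 52.1% and 6.75%, in KO. Ltbr, the lymphotoxin beta receptor of stromal and myeloid cells, rose from 1.6 ± 0.222 to 13.3 ± 5.05 CPM in KO con (3.06 ± 0.39 SE, adjusted p = 0.000101). Tnfrsf8, which encodes CD30 and lies beside Tnfrsf1b on chromosome 4, rose from 0.385 ± 0.162 to 3 ± 1.16 CPM (2.95 ± 0.37 SE, adjusted p = 9.09e-05; SD, n = 3). Tnfrsf22, a decoy receptor of TRAIL, fell in KO con (-0.86 ± 0.12 SE) and in KO Trg (-0.63 ± 0.12 SE, adjusted p = 0.0129), but with T cell genes for scaling it was called in neither (-0.27 and -0.08). Tnfrsf13c, the BAFF receptor of B cells, was at 0.305 ± 0.13 CPM in WT con and 151 ± 31.2 CPM in WT Trg libraries (SD, n = 3), beside the B cell marker sums given above.

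The list of adaptors held TRAF, death domain and related signalling genes, was not limited to adaptors of these 8 receptors, and had 18 genes tested. Of these, 1 rose and 6 fell in KO con (median -0.06), and 1 rose and 2 fell in KO Trg (median 0.04). Between cell types 7 rose and 7 fell in WT (median 0.02) and 10 rose and 5 fell in KO (median 0.31). With T cell genes for scaling 11 were higher and 0 lower in KO con, 11 and 0 in KO Trg, 12 and 0 between cell types in WT and 13 and 0 in KO. All genes tested had shares higher and lower of 23.3% and 25.4% in KO con, and 44% and 0.377% with T cell genes. In KO Trg they had 4.01% and 3.82%, and 32.1% and 0.258%. Between cell types they had 39.1% and 33.3%, and 57.3% and 6.07%, in WT, and 36.1% and 31.7%, and 52.1% and 6.75%, in KO. Tifa, a TRAF-interacting protein and the listed gene that rose in KO con, went from 1.83 ± 0.533 to 12.8 ± 5.06 CPM (SD, n = 3; log2 fold change 2.80 ± 0.30 SE, adjusted p = 2.87e-05). Whether it acts at any of the 8 receptors in these cells was not tested. It was at 28 ± 5.66 CPM in WT Trg (SD, n = 3), a difference of 3.94 on the log2 scale from WT con (adjusted p = 4.58e-07), and both differences were larger than those of any of the 8 receptors in the same contrasts. Traf5, an adaptor of OX40 and CD27, fell in KO con (-0.38 ± 0.06 SE, adjusted p = 0.000514), and Traf2 rose in KO Trg (0.23 ± 0.06 SE, adjusted p = 0.0378). Casp8, the initiator protease of death receptor signalling, was lower in both KO groups, at 201 ± 5.23 and 154 ± 5.29 CPM in WT and KO con and 199 ± 17.4 and 150.5 ± 5.94 CPM in WT and KO Trg (SD, n = 3; adjusted p = 0.00045 and 0.00494). With T cell genes for scaling the changes of Traf5 and Casp8 turned positive and were not called.

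The 25 genes of the NF-kB kinases, subunits and inhibitors split in KO con, with 8 higher and 10 lower (median -0.07), and 4 were higher and 1 lower in KO Trg (median 0.08). The split depended on the scaling, since with T cell genes 14 were higher and 0 lower in KO con and 16 and 0 in KO Trg. The shares of all genes higher and lower moved from 23.3% and 25.4% to 44% and 0.377% in KO con. In KO Trg they moved from 4.01% and 3.82% to 32.1% and 0.258%. Nfkb2, the precursor of the alternative pathway's p52 subunit, rose from 67.8 ± 1.77 to 94.1 ± 10.4 CPM in KO con and from 169 ± 13.3 to 274 ± 11.9 CPM in KO Trg (log2 fold change 0.70 ± 0.08 SE in Trg, adjusted p = 0.00127). Relb, its partner subunit, rose from 38.7 ± 0.807 to 56.2 ± 6.1 CPM in KO con (0.54 ± 0.10 SE, adjusted p = 0.00116). In KO Trg it rose from 87.9 ± 7.5 to 122 ± 15.4 CPM (0.47 ± 0.10 SE, adjusted p = 0.0176; SD, n = 3). The difference of effects passed for neither Nfkb2 (0.225, adjusted p = 0.175) nor Relb (-0.07, adjusted p = 0.77). Ikbkb, the canonical kinase, fell from 416 ± 23.4 to 269.6 ± 1.52 CPM in KO con (-0.62 ± 0.05 SE, adjusted p = 6.25e-06), a call lost with T cell genes for scaling (-0.0364), and Rel rose (0.56 ± 0.09 SE, adjusted p = 0.000453). Between cell types 10 rose and 10 fell in WT (median -0.02) and 11 rose and 9 fell in KO (median -0.08), which became 15 and 1, and 14 and 0, with T cell genes for scaling. For the difference of effects, 1 rose and 8 fell among other receptors, 2 and 2 among ligands, 2 and 1 among adaptors, and 5 and 2 among NF-kB genes. Scaled to T cell genes these became 0 and 4, 0 and 2, 0 and 1, and 0 and 0. Over all genes the shares for the difference moved from 8.86% and 12.4% to 0.188% and 5.78%. Between cell types they moved from 39.1% and 33.3% to 57.3% and 6.07% in WT, and from 36.1% and 31.7% to 52.1% and 6.75% in KO.

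**Figure D5:**
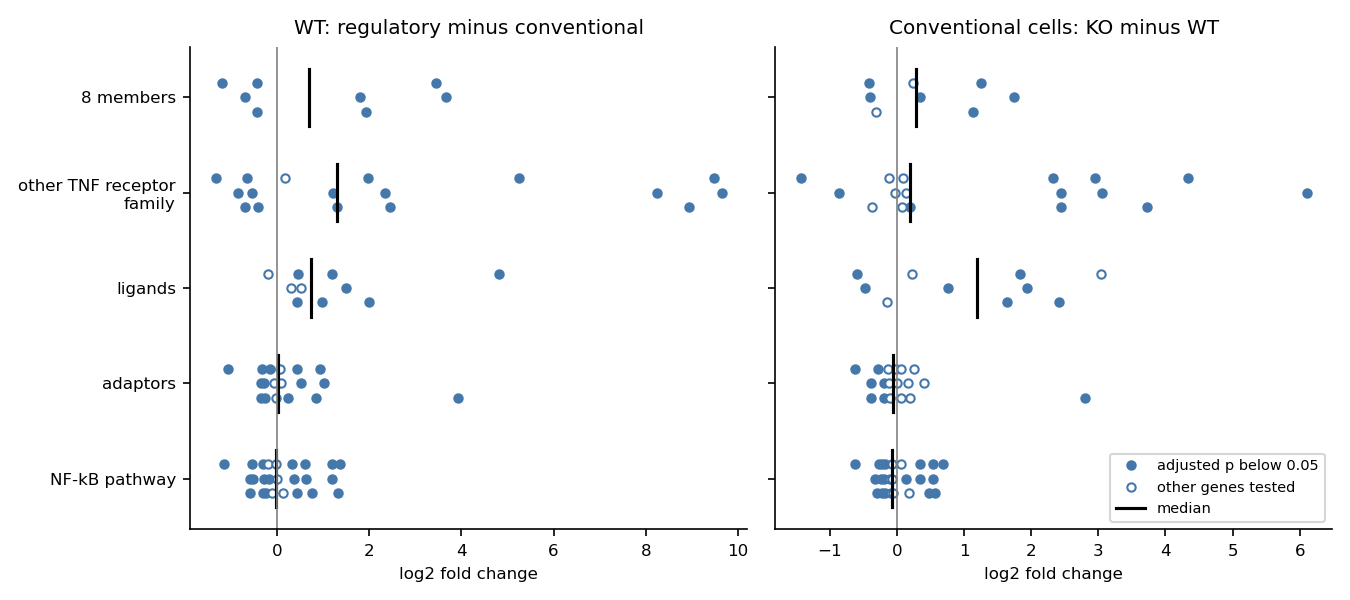
Log2 fold changes of the 8 receptors and of 4 lists of related genes between cell types in WT (left) and between genotypes in conventional cells (right), 1 point per gene, filled where the adjusted p is below 0.05, with the median of each list as a bar. The median of the ligands in KO con is 1.20, and the adaptors and NF-kB genes have medians near 0 in both contrasts with TMM scaling. The ligand median includes Tnfsf4, Tnfsf18 and Cd70, whose WT con and KO con means are 1.42 CPM or less.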

How the data were processed

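Polyadenylated RNA of 12 libraries was sequenced with a strand-preserving kit, per the labels. The authors deposited raw counts of reads for each Ensembl gene, mapped with STAR 1.7.20 to GRCm38 per the submitters' processing notes. The annotation release is not given in the sources used here. Tallies of reads given to no gene (26.2% to 30.5% of all) were left out. Symbols were found for 45143 of 45706 genes. The 8 members and all gene lists were chosen with earlier results of these data known.

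One edgeR 4.0.16 model in R 4.3.3 covered the 12 libraries, with each group as a term. It used filterByExpr at its defaults (10 counts, 15 in total) and TMM factors, which also underlie the CPM values. Each contrast was tested by the two-sided quasi-likelihood F test, and Benjamini-Hochberg adjustment ran over the 15922 genes tested, with 0.05 as the threshold. The SE of a log2 fold change is its size over the square root of F. Libraries of a group varied with a biological coefficient of 0.155, and at the members' counts replicate spread sets the precision. The scripts were tested on simulated data. Exon lengths came from GENCODE vM21 and promoters from RefSeq. Figures used matplotlib 3.10.9 under Python 3.11.15.

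Named genes are the 8 members, Coro1a, per comparison up to 2 called genes of each pathway list in each direction (smallest p, 1 CPM or more), the 3 genes most like each member (5 CPM or more, log2 CPM with prior count 2) and the tested neighbours of Tnfrsf4 and Tnfrsf18. Foxp3 and the position of Tnfrsf8 were added after their values were seen, as were the single values of Il2ra, Ikzf2, Ctla4, Tnfsf4, Tnfsf18 and Cd70. Alternative settings were RLE factors, upper-quartile factors, 6 T cell genes for scaling, DESeq2 1.42.0, limma-voom (limma 3.58.1), no filter or one of 1 CPM in 3 libraries, a fit on the compared groups alone, a replicate block, omission of each library and of 4 libraries holding Xist and Y-linked reads together, a 1.5-fold minimum and a 0.01 threshold. Omitting 2 of those libraries and a sex term (Xist over 100 CPM) were chosen after seeing the data.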

Additional observations from a re-analysis of the deposited data

Results flagged for a closer look

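The genotype effect differed between the cell types, by the edgeR test of the difference itself, in 2 members and 14 genes of the pathway lists that the naming rule selects. The values are the KO effect in regulatory minus the KO effect in conventional cells, on the log2 scale. Tnfrsf1b had -1.41 and Tnfrsf9 -1.03. Among other receptors Cd40 had -3.41, Tnfrsf13c -2.75 and Tnfrsf19 1.53. These 3 had few reads in conventional libraries. In WT con and KO con Cd40 was at 0.121 and 1.65 CPM, Tnfrsf13c at 0.305 and 1.68, and Tnfrsf19 at 0.969 and 0.357. In WT Trg and KO Trg they were at 37.6 and 46.7, 151 and 122, and 2.39 and 2.57. The naming minimum of 1 CPM is here a mean over all 4 groups. Among ligands and partners Ltb had 0.59, Tnfsf14 -1.51, Btla 0.44 and Cd160 -1.35. In the list of adaptors and related genes Traf4 had 0.66, Birc2 0.28 and Tifa -2.76. Among NF-kB genes Map3k14 had 0.4, Ikbkb 0.51, Rel -0.42 and Nfkbiz -0.5. With libraries scaled to T cell genes 5 of these 14 listed genes kept the call (Cd40, Tnfrsf13c, Tnfsf14, Cd160 and Tifa), 9 lost it, among them every one with a positive difference, and both members kept it. The part of other cell types' RNA in these values was not tested, and B cell, macrophage, neutrophil, dendritic, gamma delta T and NK cell marker sums differ between the same groups.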

How the results depend on the processing

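Scaling to 6 T cell genes had the widest effect, and the cause of the difference between scalings was not tested. It turned the log2 fold changes in KO con to 0.19 for Tnfrsf14, 0.27 for Tnfrsf25, 0.17 for Cd27, 0.12 for Ltb, 0.20 for Traf5, 0.21 for Casp8 and 0.30 for Rbck1. In KO Trg they became 0.39 for Tnfrsf14, 0.28 for Tnfrsf25, 0.14 for Cd27, 0.091 for Tnfrsf26, 0.14 for Casp8, 0.30 for Traf3ip2 and 0.32 for Map3k7. Between cell types they became 0.19 for Tnfrsf25, 0.18 for Cd27, 0.30 for Traf6 and 0.0638 for Chuk in WT, and 0.20 for Tnfrsf25, 0.16 for Cd27, 0.28 for Ripk1 and 0.19 for Chuk in KO. Members called became 4 in KO Trg, 5 for the WT and 4 for the KO cell type contrast, and genes called 5157 in KO Trg and 951 for the difference of effects. The difference of effects of Cd27 became -0.0249 with T cell genes, -0.0003 with upper-quartile factors and -0.0099 with the stricter filter.

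For all genes called, a 1.5-fold minimum gave 3602 in KO con, 562 in KO Trg, 7569 between cell types in WT, 6726 in KO and 2018 for the difference of effects, because it asks for more. A threshold of 0.01 gave 253 in KO Trg and 1425 for the difference. In KO Trg DESeq2 gave 1971 genes and 1 member, and only the groups compared gave 313 genes. Members called were 3 in KO con and 5 between cell types in KO with the 1.5-fold minimum, and 5 between cell types in KO and 1 for the difference with the 0.01 threshold. Leaving out the 4 libraries with Xist and Y-linked reads left 1 library in each regulatory group, assumed to vary like the other groups, and gave 125 genes in KO Trg, 2228 genes and 1 member for the difference and 5 members between cell types in KO, and turned Tnfrsf1a in KO Trg to -0.0436. Without 2 of them 1 member was called in KO Trg and Tnfrsf1a was -0.12.

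Leaving out each library in turn gave 439 to 1974 genes in KO Trg (674, 474 and 1974 without WT Trg replicates 1, 2 and 3, and 684 and 439 without KO Trg replicates 1 and 3), and 4 to 7 members in KO con, 0 to 1 in KO Trg, 8 to 8 for the WT and 5 to 8 for the KO cell type contrast and 2 to 3 for the difference. Log2 fold changes in KO Trg then ran from -0.0669 to 0.21 for Tnfrsf18, from -0.0652 to 0.19 for Tnfrsf1a and from -0.0026 to 0.2484 for Tnfrsf9, and the difference of effects from -0.031 to 0.2242 for Tnfrsf25 and from -0.0645 to 0.19 for Cd27. Deviations from group means showed no clear pairing by replicate number (correlations from -0.518 to 0.176, with 4 of 12 pairs over 0.1, and 7 of 24 checks best with their own number). With 3 libraries a group they cannot exclude a shared animal or day. In both conventional groups replicates 1 and 2 had high Xist, and replicate 3 had high Y-linked reads (541 CPM in WT con and 456 in KO con). A replicate block gave 7279, 856, 11244, 10478 and 2753 genes and 6, 0, 8, 7 and 2 members in KO con, KO Trg, WT and KO between cell types, and the difference, and Tnfrsf1b between cell types in KO was then not called (adjusted p = 0.0563).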
